A study of Mus musculus with 4 samples.

Results

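Xirp1, Xirp2, Abra, Nr4a1 and Myf6 are 5 genes that muscle fibres use when they contract, are strained or are repaired, and they are 5 of the 1000 genes in the deposited table. They were chosen by name because their reads were high in treated muscle in both assays, so the treated to untreated ratios below describe them and test nothing. The data came from tibialis anterior, a leg muscle, of Dmd Dup2 mice, a model of Duchenne muscular dystrophy in which exon 2 of the dystrophin gene is duplicated. Treated mice had been given scAAV9.U7-ACCA, an AAV9 vector with a self-complementary genome that expresses a modified U7 snRNA to make splicing skip an exon. The untreated mice carried the same duplication. Each condition had 1 mRNA library and 1 library of ribosome footprints, the mRNA fragments that ribosomes protect from digestion. The labels give no age, sex, vector dose, time after injection or number of animals per library, and no muscle without the duplication was analysed here.

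Skeletal muscle turns contraction and stretch into changes of transcription through several routes. The Xin repeat proteins encoded by Xirp1 and Xirp2 bind actin filaments at the ends of fibres and at small lesions of the sarcomere. Abra, also called STARS, binds actin and releases a coactivator that switches on serum response factor, while the nuclear receptor gene Nr4a1 is an immediate early gene that responds to exercise and adrenergic signals. Myf6, also called MRF4, is the myogenic transcription factor that stays active in adult fibres.

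The RefSeq promoter table of build GRCm38.p6 held an entry for 2 of the 5 genes, Xirp2 and Nr4a1. These 300-base windows run from 250 bases before to 50 bases after the start site and are shown because the transcripts of both genes were high in treated muscle. The Xirp2 window is chr2:67445752-67446051 on the + strand, and its capitals mark an AP-1 site and a MEF2 site. The Nr4a1 window is chr15:101266596-101266895 on the + strand, and its capitals mark each copy of the core of the cyclic AMP response element (CRE).
Xirp2: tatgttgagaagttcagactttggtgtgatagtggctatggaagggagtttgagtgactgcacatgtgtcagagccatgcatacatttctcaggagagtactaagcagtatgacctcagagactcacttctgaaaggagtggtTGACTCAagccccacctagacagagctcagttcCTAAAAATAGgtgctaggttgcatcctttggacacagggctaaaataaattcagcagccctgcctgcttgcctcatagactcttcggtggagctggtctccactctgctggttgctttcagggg
Nr4a1: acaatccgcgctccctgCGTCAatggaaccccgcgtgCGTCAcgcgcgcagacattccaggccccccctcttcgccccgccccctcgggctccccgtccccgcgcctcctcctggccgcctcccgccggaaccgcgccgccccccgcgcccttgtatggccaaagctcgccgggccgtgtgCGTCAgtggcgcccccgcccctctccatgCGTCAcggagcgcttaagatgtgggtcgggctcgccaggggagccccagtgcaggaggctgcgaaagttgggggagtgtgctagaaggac

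On both strands the windows were searched for 8 motifs, and a match is given only as letters in the sequence. The Nr4a1 window held 4 copies of the CRE core TGACG, each on the reverse strand and so written CGTCA, starting at positions -233, -213, -69 and -40 from the start site. Of the 32851 promoters in the table, 20.8% held at least 1 copy and 0.231% held 4 or more. Among the 920 promoters of listed genes the shares were 35.0% and 1.41%. The Nr4a1 window also had 1 MCAT match (CATTCC), found in 14.7% of all promoters and 14.3% of those of listed genes. The Xirp2 window held 1 MEF2 site at positions -74 to -65, a motif present in 3.19% of all promoters and 3.48% of those of listed genes, and 1 AP-1 site (TGANTCA) at -107 to -101, present in 7.81% and 4.67%. Its 2 E-box matches (CANNTG, in 72.3% of all and 66.0% of listed promoters) overlapped each other. Neither window held an exact match to the CArG box bound by serum response factor (1.63% of all promoters and 2.72% of listed ones). The full CRE TGACGTCA (1.79% and 3.80%) and the TATA box TATAAA (13.6% and 11.1%) were absent too. Near matches were not counted.

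The listed genes together had 4248818 reads in treated mRNA, 125236 in untreated mRNA, 1664122 in treated footprints and 3349015 in untreated footprints. The table is ordered by the untreated mRNA count and ends at 14 reads, and Xirp1, Abra, Nr4a1 and Myf6 had 15 to 29 reads in that library, against a median of 25 over the listed genes. Counts were scaled with TMM, a trimmed mean that assumes most genes are alike, and levels are given as TMM-scaled CPM, that is counts scaled to a common library size. Intervals are 95% and cover counting error only. With 1 library per group there was no replicate check, and each call below compares these libraries and not the conditions. To be called higher or lower, a gene needed a difference of at least 1.5-fold, an interval without 1 and at least 50 reads in the pair of libraries. Dmd, whose transcript the vector acts on, had 1959 treated and 25 untreated mRNA reads, a ratio of 3.63 (2.45 to 5.63). Its 183 treated and 80 untreated footprint reads gave 4.74 (3.62 to 6.24). As 31.8% of 996 listed genes were called higher in mRNA, its direction is no check of the labels.

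All 5 genes were called higher in treated muscle in both assays. The background was 31.8% of 996 listed genes called higher in mRNA, 19.9% of 999 in footprints and 11.2% of 995 in both. Because the genes were picked for this pattern, nothing is read from the excess of their count over those shares. The calls held under each of 5 other scalings in footprints, and in mRNA for every gene except Myf6.

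The Xin repeat genes had the highest mRNA ratios of the group. Xirp1 (NM_011724), which encodes the shorter of the Xin repeat proteins in mouse, had 6954 reads in the treated mRNA library and 29 in the untreated one. Those counts correspond to 2059 (2011 to 2108) CPM in treated and 185 (124 to 266) CPM in untreated muscle, a ratio of 11.1 (7.74 to 16.6). Scaled by the listed totals and not by TMM, the treated count at the depth of the untreated library would be 205 reads, a ratio of 7.07. Xirp1 was the mRNA of rank 53 by reads among the listed genes in treated muscle, against rank 420 in untreated muscle. Its footprint count was 2122 in treated muscle and 563 in untreated muscle, or 1290 (1236 to 1346) and 165 (152 to 180) CPM. The footprint ratio of 7.80 (7.11 to 8.58) had a narrower interval than the mRNA ratio, and the untreated footprint library was the deeper one.

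Xirp2 (NM_001083919), which encodes the larger relative of Xirp1, had 30884 mRNA reads in treated muscle and 139 in untreated muscle, or 9143 (9042 to 9246) and 887 (746 to 1047) CPM. Its mRNA ratio of 10.3 (8.73 to 12.3) had the interval with the smallest ratio of upper to lower bound among the 5 genes. Footprints were less far apart, with 2176 reads in treated muscle and 1044 in untreated muscle, or 1323 (1268 to 1379) and 307 (288 to 326) CPM. The footprint ratio was 4.31 (4.01 to 4.65). Xirp2 moved to rank 18 by mRNA reads in treated muscle, against 84 in untreated muscle, and to rank 85 by footprints, against 303. One lncRNA gene, Gm13601, overlaps Xirp2 in the RefSeq table, and the sources used here do not state whether counting used strand. None of the other 4 genes overlaps another gene there.

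Between the Xin repeat genes the mRNA ratios could not be told apart, and the footprint ratios could. The mRNA ratio of Xirp1 over that of Xirp2 was 1.08 (0.723 to 1.61). The same quotient for footprints was 1.81 (1.61 to 2.04). These quotients do not depend on how the libraries are scaled.

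Abra (NM_175456), the actin-bound activator of serum response factor signalling, had the highest footprint ratio of the 5 genes. It had 2724 mRNA reads in treated muscle and 15 in untreated muscle, which is 1 read above the end of the table. Levels were 806 (776 to 837) and 95.7 (53.6 to 158) CPM, and the ratio was 8.42 (5.10 to 15.1). Footprints numbered 2286 in treated muscle and 459 in untreated muscle, or 1390 (1333 to 1448) and 135 (123 to 148) CPM. The footprint ratio of 10.3 (9.32 to 11.4) had rank 2 among the 999 listed genes compared. By mRNA reads Abra had rank 131 in treated muscle and rank 878 in untreated muscle.

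Nr4a1 (NM_010444), the immediate early nuclear receptor, differed more in footprints than in mRNA. Its mRNA reads were 1960 in treated muscle and 19 in untreated muscle, or 580 (555 to 607) and 121 (73.0 to 189) CPM. The mRNA ratio was 4.79 (3.06 to 7.97). Its footprint reads were 1725 in treated muscle and 355 in untreated muscle, or 1049 (1000 to 1099) and 104 (93.7 to 116) CPM, and the ratio was 10.1 (8.97 to 11.3). The footprint ratios of Abra and Nr4a1 could not be told apart, with a quotient of 1.02 (0.880 to 1.19). In mRNA the same quotient was 1.76 (0.892 to 3.47).

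Myf6 (NM_008657), the adult myogenic factor, had a clear difference in footprints and an uncertain one in mRNA. Footprint reads were 525 in treated muscle and 248 in untreated muscle, or 319 (292 to 348) and 72.8 (64.0 to 82.5) CPM, a ratio of 4.38 (3.76 to 5.12). Its mRNA reads were 828 in treated muscle and 20 in untreated muscle, or 245 (229 to 262) and 128 (78.0 to 197) CPM. The mRNA ratio of 1.92 (1.24 to 3.16) was called with TMM and with DESeq2 size factors. It was also called, at 1.62 (1.04 to 2.67), when the most abundant genes were left out of the total. It was not called with the upper quartile, at 1.46 (0.937 to 2.40), with the listed totals, at 1.22 (0.785 to 2.01), or with the constants behind the authors' normalized columns, at 1.04 (0.670 to 1.72). In those deposited columns Myf6 mRNA stands at 153.8 in treated muscle and 147.6 in untreated muscle.

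**Figure D1:**
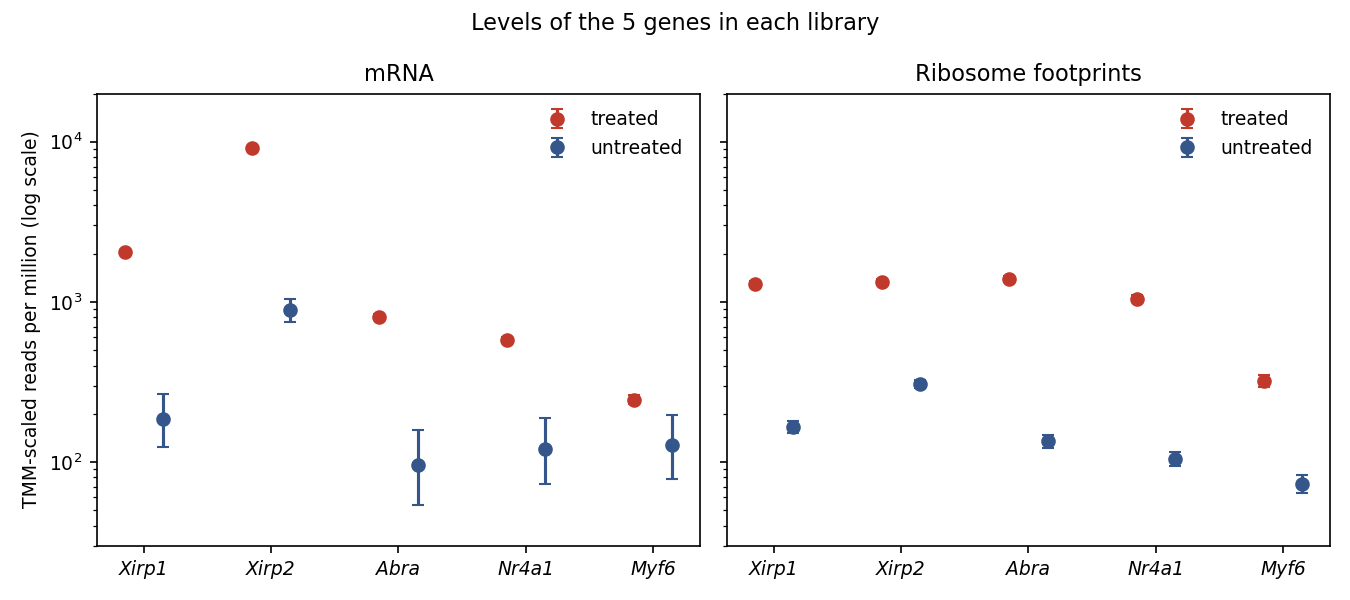
TMM-scaled CPM (log axis) of the 5 genes in mRNA (left) and ribosome footprints (right), with treated muscle in red and untreated muscle in blue, 1 library each, and bars for 95% Poisson counting intervals. In footprints the treated and untreated intervals of each gene lie far apart, while in mRNA those of Myf6 are the closest, at 245 CPM treated and 128 untreated.

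The order of the ratios differed between the assays. In mRNA it ran Xirp1, Xirp2, Abra, Nr4a1 and Myf6, and the last step was the one at which neighbours differed beyond counting error, with Nr4a1 2.49 times Myf6 (1.32 to 4.69). In footprints it ran Abra, Nr4a1, Xirp1, Myf6 and Xirp2. There Nr4a1 was 1.29 times Xirp1 (1.11 to 1.49) and Xirp1 was 1.78 times Myf6 (1.49 to 2.13), whereas Myf6 over Xirp2 was 1.02 (0.859 to 1.20). Of the 10 pairs of genes, the interval of the quotient excluded 1 for 6 in mRNA and for 8 in footprints. The 5 mRNA ratios spanned 5.79-fold and the 5 footprint ratios 2.39-fold.

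**Figure D2:**
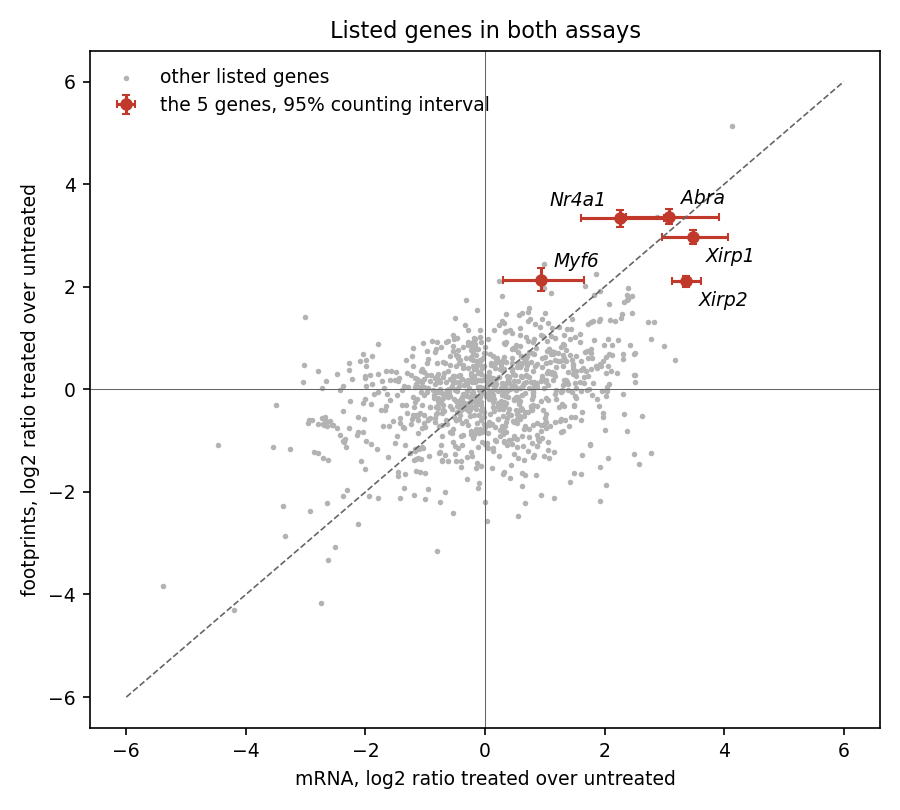
Log2 ratio of treated over untreated muscle in mRNA (horizontal axis) and in footprints (vertical axis) for the 995 listed genes with at least 50 reads in each pair. The 5 genes are red with 95% counting intervals, all other listed genes are grey, and the dashed line marks equal ratios. Xirp2 lies below the line, Nr4a1 and Myf6 lie above it, and the intervals of Xirp1 and Abra reach it.

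The choice of scaling shifts every mRNA ratio by the same factor. Over the listed genes the median log2 mRNA ratio came to 0.06 under TMM, -0.19 without the most abundant genes, -0.34 with the upper quartile, -0.60 with the listed totals and -0.82 with the authors' constants. Across the 6 scalings the mRNA ratio lay between 6.04 and 11.1 for Xirp1, 5.59 and 10.3 for Xirp2, 4.57 and 8.42 for Abra, 2.60 and 4.79 for Nr4a1, and 1.04 and 1.92 for Myf6. The footprint ratios moved less, between 8.54 and 10.7 for Abra and between 3.57 and 4.48 for Xirp2. Log2 ratios were also measured from the median listed gene. That difference is the same under every scaling, but it takes the median listed gene as unchanged, which was not tested. In mRNA it was 3.42 for Xirp1, 3.31 for Xirp2, 3.02 for Abra, 2.20 for Nr4a1 and 0.88 for Myf6. For footprints the same differences were 2.98, 2.13, 3.39, 3.35 and 2.15.

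**Figure D3:**
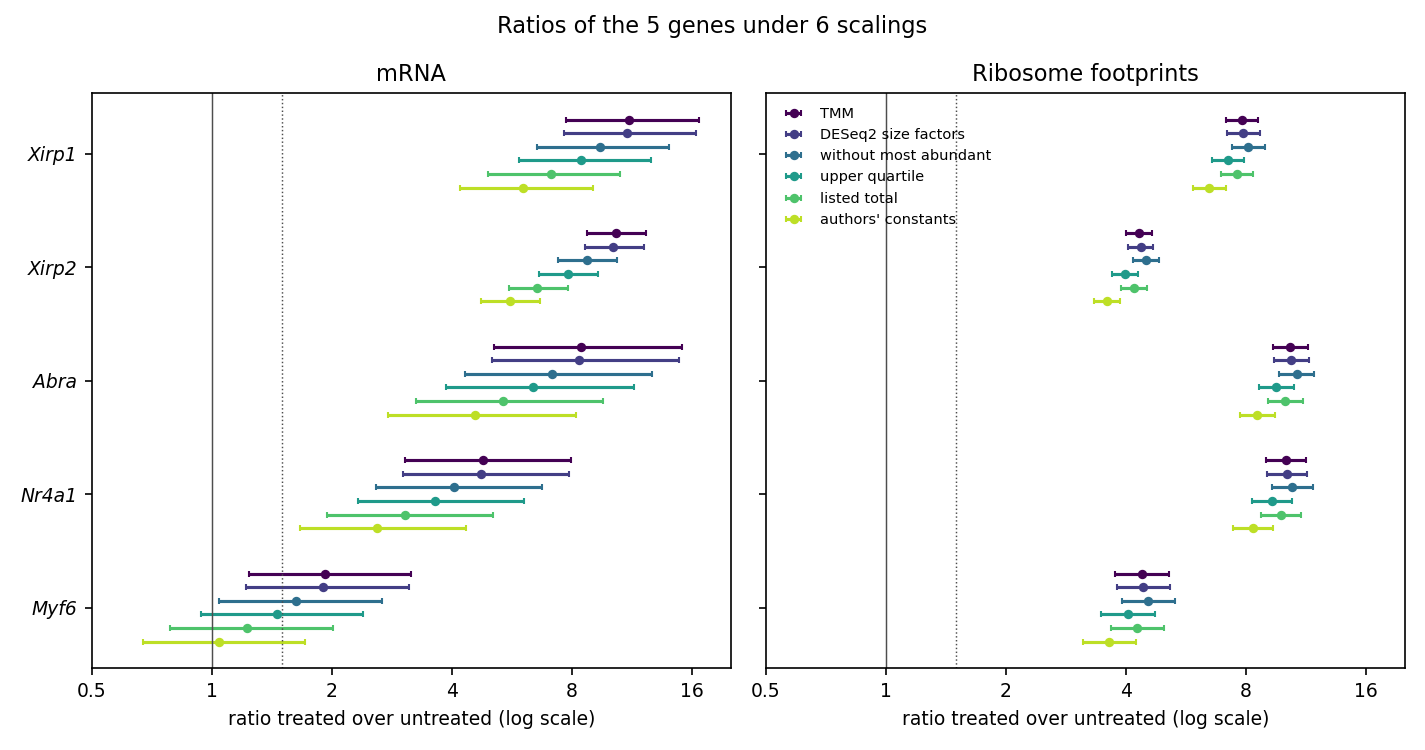
Treated over untreated ratio (log axis) of each gene in mRNA (left) and footprints (right) under 6 library scalings, with 95% counting intervals, a solid line at 1 and a dotted line at the 1.5-fold threshold. Xirp1, Xirp2, Abra and Nr4a1 stay right of the dotted line in both assays, and Myf6 mRNA falls to 1.04 with the authors' constants.

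The genes were also ranked among listed genes with a like untreated mRNA count. Among the 189 listed genes with 24 to 36 untreated mRNA reads, Xirp1 had rank 1 by mRNA ratio and the median ratio was 0.957. Xirp2 had rank 1 of 29 genes with 113 to 173 reads, and Abra had rank 2 of 259 genes with 14 to 18 reads. Nr4a1 had rank 15 of 344 genes with 16 to 23 reads. Myf6 had rank 114 of 389 genes with 16 to 25 reads, whose median mRNA ratio was 1.24. By footprint ratio the ranks among the same genes were 1, 1, 2, 2 and 4 in the order just used. In these sets 30.2% to 39.0% of genes were called higher in mRNA and 17.5% to 31.0% in footprints. The genes were picked for high ratios, so their ranks are a description and test nothing.

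Translation efficiency was taken as the footprint ratio over the mRNA ratio, with 0.5 added to each count, and its values fell on both sides of 1. It was made from the same libraries as the choice of genes and is a description too. Xirp2 had a value of 0.420 (0.350 to 0.504), which is 2.38-fold lower (1.98 to 2.86) in treated muscle, and it was called lower, as were 31.9% of 995 listed genes. Nr4a1, at 2.15 (1.36 to 3.41), and Myf6, at 2.34 (1.47 to 3.71), were called higher, as were 26.0% of listed genes. Xirp1, at 0.713 (0.491 to 1.04), and Abra, at 1.26 (0.759 to 2.10), were called neither way. With the listed totals Abra reached 1.93 (1.16 to 3.22), which would be called higher, and Xirp1 came to 1.09. Xirp2 came to 0.643 (0.536 to 0.771) with the listed totals, still called lower, and Nr4a1 and Myf6 came to 3.30 and 3.57. That scaling called 444 listed genes higher, against 259 with TMM. Relative to the median listed gene the log2 value was -1.14 for Xirp2, -0.38 for Xirp1, 0.45 for Abra, 1.22 for Nr4a1 and 1.33 for Myf6.

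Footprints per mRNA were also taken within each condition, from the same counts as the translation efficiency. Values are log2 footprints per mRNA relative to the median of 1000 listed genes, and they also depend on how much of a transcript is coding. Xirp2 had few footprints for its mRNA in both conditions, at -2.78 (-2.84 to -2.71) in treated muscle and -1.55 (-1.80 to -1.29) in untreated muscle, which are ranks 963 and 928 of 1000. Xirp1 stood at -0.66 (-0.73 to -0.59) in treated muscle and -0.18 (-0.72 to 0.36) in untreated muscle. Abra stood above the median gene in treated muscle, at 0.80 (0.72 to 0.88), and its untreated value of 0.48 (-0.26 to 1.22) had an interval that held 0. Nr4a1 was at 0.87 (0.77 to 0.96) in treated muscle and -0.23 (-0.90 to 0.43) in untreated muscle. Myf6 was on opposite sides of the median gene, at 0.39 (0.24 to 0.55) in treated muscle and -0.82 (-1.48 to -0.17) in untreated muscle.

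**Figure D4:**
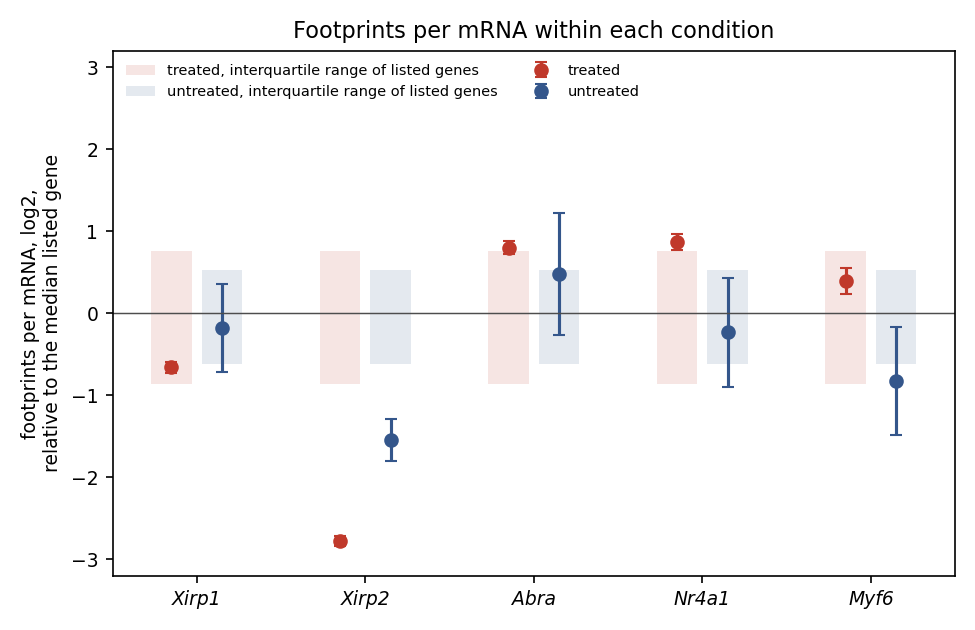
Log2 footprints per mRNA of each gene relative to the median listed gene, in treated (red) and untreated (blue) muscle, with 95% counting intervals and shaded bands for the interquartile range of the 1000 listed genes in the same condition. Xirp2 lies below the band in both conditions, and the untreated intervals of the other 4 genes rest on 15 to 29 mRNA reads.

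The listed genes nearest to each of the 5 were found by the distance between their log2 ratios in mRNA and footprints, 2 values from 4 libraries. Trim63, a ubiquitin ligase of the sarcomere, was nearest to Abra at 0.20 and nearest to Nr4a1 at 0.62, and it was second for Xirp1 at 0.72. It had 2695 treated and 17 untreated mRNA reads, and 2201 treated and 444 untreated footprint reads. The nearest gene to Xirp1 was Abra at 0.57, and Xirp2 followed Trim63 at 0.86. Among the nearest to Xirp2 were Xirp1 at 0.86 and Scn4a, the sodium channel of the fibre membrane, at 0.96. Nr4a1 had Abra at 0.82 and Dmd at 1.16 after Trim63. The nearest to Myf6 were Atl2, which shapes the endoplasmic reticulum, at 0.17, Art3, an ADP-ribosyltransferase family gene, at 0.30 and Hspb1, a small heat shock protein, at 0.31.

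Few related genes of transcriptional control were in the table. Of 40 immediate early and activity-induced regulators looked for, Nr4a1 was the only listed gene, and of 24 myogenic regulators Myf6 was. The other genes of these lists were not analysed here. Of 35 genes in a list of Xin repeat genes, their partners, sarcomere repair genes and stress chaperones, 22 were listed, 20 of them besides Xirp1 and Xirp2. In mRNA 7 of the 20 were called higher and 5 lower, and in footprints 8 higher and 4 lower, against a background of 31.8% higher and 24.8% lower in mRNA and of 19.9% higher and 26.2% lower in footprints. With the authors' constants 2 were called higher and 11 lower in mRNA, against 11.0% and 54.5% of listed genes. With TMM their median log2 ratio lay 0.17 above that of the median listed gene in mRNA and 0.24 above it in footprints.

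Nrap, which anchors actin at the ends of myofibrils, was higher in both assays. It had 12747 treated and 309 untreated mRNA reads, a ratio of 1.91 (1.71 to 2.15), and 6401 treated and 6353 untreated footprint reads, a ratio of 2.09 (2.01 to 2.16). Its mRNA call was lost with the listed totals, the upper quartile and the authors' constants. Des, which encodes the intermediate filament protein desmin, was lower in both, with 8351 treated and 776 untreated mRNA reads and 1821 treated and 16552 untreated footprint reads. The ratios were 0.499 (0.464 to 0.538) in mRNA and 0.228 (0.217 to 0.239) in footprints. Flnc, which encodes filamin C, a partner of the Xin repeat proteins, had ratios of 1.29 (1.15 to 1.46) in mRNA and 1.19 (1.13 to 1.25) in footprints, under the fold threshold. Its mRNA ratio was below 1 with the upper quartile, the listed totals and the authors' constants, down to 0.701. The constitutive chaperone gene Hspa8 had 1.20 (1.07 to 1.34) and 0.858 (0.827 to 0.889) and was called neither way. The genes named next were chosen after their values were seen. Besides Nrap, those called higher in both assays with TMM were Ldb3, Ankrd23, Hspb1 and Hspb8. Ankrd23, a muscle ankyrin repeat gene, had the highest mRNA ratio of these, at 4.53 (3.57 to 5.84), with 2.51 (2.17 to 2.90) in footprints, and Hspb1 the highest footprint ratio, at 5.41 (5.03 to 5.82). The Hspb1 mRNA call was lost with the listed totals, at 1.26 (0.889 to 1.85), and with the authors' constants, at 1.08 (0.759 to 1.58). With the authors' constants, 2 of the 20 listed genes besides Xirp1 and Xirp2 were called higher in mRNA. Besides Des, those called lower in both with TMM were Fhl1, Kbtbd10 and Pgm5, and Cryab was called lower in mRNA alone.

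**Figure D5:**
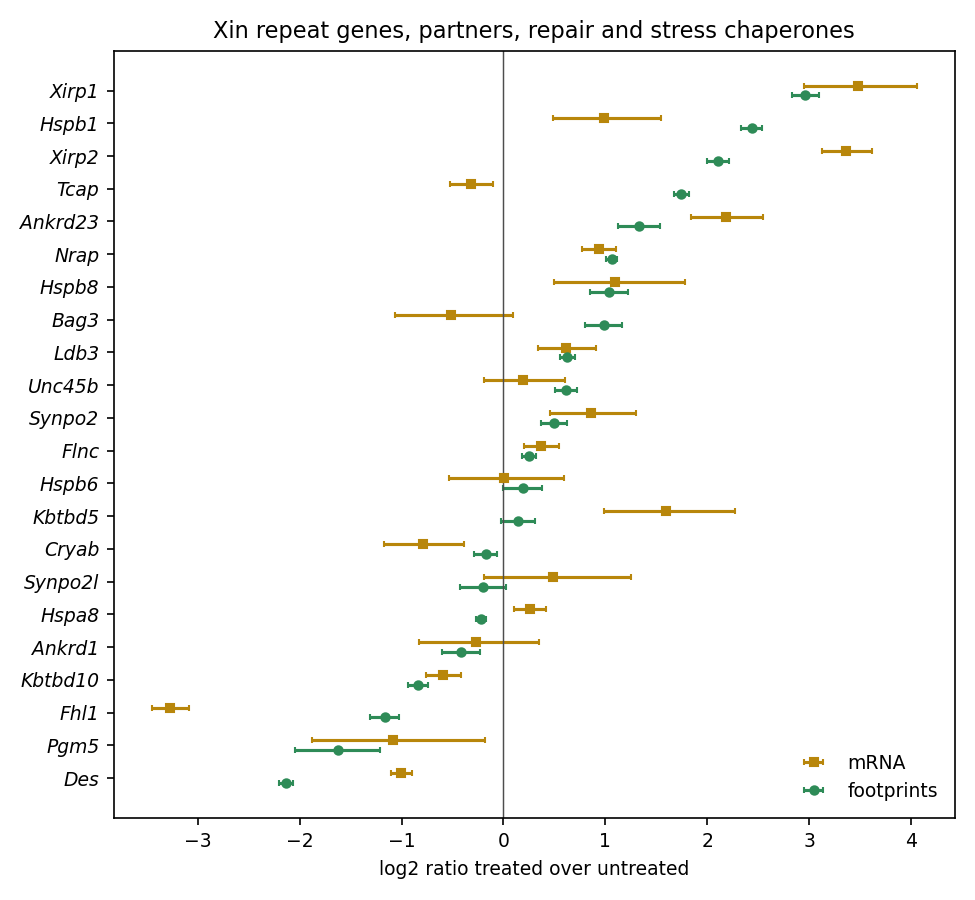
Log2 ratio of treated over untreated muscle in mRNA (squares) and footprints (circles) for the 22 listed genes of the list of Xin repeat genes, partners, repair genes and stress chaperones, ordered by footprint ratio, with 95% counting intervals. Xirp1 and Xirp2 have the highest mRNA values, at 3.48 and 3.37, and Des has the lowest footprint value, at -2.13.

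Of 29 genes of actin and serum response factor signalling, 13 were listed, 12 of them besides Abra. In mRNA 0 of the 12 were called higher and 6 lower with TMM, and in footprints 1 was higher and 5 lower. The same background was 31.8% higher and 24.8% lower in mRNA, and 19.9% higher and 26.2% lower in footprints. The number called lower in mRNA was 8 with the upper quartile and 11 with the listed totals or the authors' constants, under which 37.0%, 46.6% and 54.5% of listed genes were called lower. With TMM their median log2 ratio lay 0.56 below that of the median listed gene in mRNA and 0.39 below it in footprints, while Abra lay above it by 3.02 and 3.39. The gene called higher in footprints was Diap1, named after its values were seen, at 1.53 (1.28 to 1.82). Acta1, the skeletal alpha-actin gene, had an mRNA ratio of 0.854 (0.826 to 0.883) and footprints 2.34-fold lower (2.31 to 2.38). Actc1, the cardiac alpha-actin gene that immature fibres express, was 6.23-fold lower (5.80 to 6.68) in mRNA and 4.64-fold lower (4.49 to 4.80) in footprints. The cytoplasmic actin genes Actb and Actg1 had mRNA ratios of 0.948 (0.812 to 1.11) and 0.958 (0.751 to 1.24) and footprint ratios of 0.755 (0.734 to 0.775) and 0.843 (0.818 to 0.869). The mRNA ratios of Acta1, Actb and Actg1 depended on the scaling, at 0.543, 0.603 and 0.609 with the listed totals and 0.464, 0.515 and 0.520 with the authors' constants, where each was called lower. Acta1 was also called lower with the upper quartile, at 0.648. With near-identical actin genes, reads could have been divided between copies.

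Markers of muscle fibres and of other cells were compared between the same libraries, and several differed. Of 13 macrophage markers 5 were listed, and all 5 were called lower in both assays, against 24.8% of listed genes in mRNA and 26.2% in footprints, with summed levels of 291 CPM in treated mRNA against 1327 in untreated mRNA and 833 in treated footprints against 1771 in untreated footprints. Of 8 fibroblast markers 6 were listed, with sums of 3583 and 16708 CPM in treated and untreated mRNA and of 5533 and 25964 in treated and untreated footprints. In mRNA 3 of the 6 were called lower and 1, Dcn, which encodes decorin, was called higher at 3.02 (2.35 to 3.95), and in footprints 5 were lower and 0 higher. Of 10 markers of regenerating fibres and satellite cells 4 were listed, with sums of 36827 and 45651 CPM in treated and untreated mRNA and of 72263 and 82114 in treated and untreated footprints. Most of the mRNA sum came from Myh8, the perinatal myosin gene, at 27111 CPM in treated and 31215 in untreated muscle and called neither way. In both assays Actc1 and Myl4 were called lower, and Myh8 and Myh3 neither way. Mature fibre markers, 9 of 10 listed, summed to 291872 and 242442 CPM in treated and untreated mRNA and to 320610 and 320341 in treated and untreated footprints. In mRNA 3 of the 9 were called higher and 0 lower, against 31.8% and 24.8% of listed genes. In footprints 2, Pvalb and Mb, were called higher and 2, Acta1 and Mylpf, lower, against 19.9% and 26.2%. With the authors' constants the mRNA calls were 0 higher and 4 lower, against 11.0% and 54.5%. No endothelial or red blood cell marker on the lists was in the table. In bulk muscle, fewer cells of a type and less RNA per cell cannot be told apart, and the part of these shifts in the ratios of the 5 genes was not tested.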

How the data were processed

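The deposited table gives for each of 4 libraries a read count per gene, per the file headers, and a normalized read count. Each deposited normalized value is, within 0.287, its count multiplied by a constant of the library, and was read as CPM, a scale inferred from the values. Libraries were a stranded total RNA kit (mRNA) and a small RNA kit (footprints) with 50 nt reads, per the labels' protocols. The submitters' processing notes name Trimmomatic, STAR, edgeR and the build mm9 with no roles. How reads were counted, by strand or when mapped more than once, is not given in the sources. Reads carried no molecular identifiers, so intervals cover counting error only.

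The 5 genes, the 4 pathway lists and the 6 marker lists were chosen with earlier results of these data known. Examples from a list were the up to 4 other listed genes with the highest mean level, and the 3 nearest genes were taken for each of the 5, of which 1 is not reported here. TMM factors were computed on the 1000 listed genes (edgeR 4.0.16, R 4.3.3). Ratios have exact conditional binomial intervals, levels exact Poisson intervals, and translation efficiency and quotients of ratios normal intervals on the log scale (scipy 1.17.1). The calculation was run on Poisson counts simulated over all listed genes and scaled by the listed totals. Those counts follow the model that the intervals assume, so the run checks neither TMM nor the spread between libraries. With 1 library per group the spread between replicates cannot be estimated, so no p-value is given. Genes with a like untreated count were those within 0.8 to 1.25 times the gene's own, a range chosen after the data were seen. Alternatives were 5 scalings (DESeq2 1.42.0 size factors, upper quartile, listed total, total without the 20 most abundant genes of each library, 33 in all, and the authors' constants), no minimum or 200 reads, a 2-fold threshold and, for translation efficiency, 5 added to each count. All 5 identifiers matched the RefSeq gene table of GRCm38.p6, which was used for names and neighbours. Transcript lengths were not used, so no level per length is given, and ranks by reads also follow transcript length.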

Additional observations from a re-analysis of the deposited data

How the results depend on the processing

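Alternatives are those named under the processing. The footprint calls of the 5 genes held in every alternative, and the mRNA calls held for all but Myf6, which left 4 of 5 with the listed total, upper quartile, authors' constants and 2-fold threshold. In translation efficiency 3 of the 5 genes, Abra added, were called higher with the listed total, the authors' constants and 5 added to each count. Those settings called 444, 444 and 328 listed genes higher, in that order, against 259 with TMM. The number of listed genes called higher in mRNA was 317 with TMM, 148 with the listed total, 205 with the upper quartile and 110 under the authors' constants. The number called lower was 247 with TMM, 464 with the listed total, 543 with the authors' constants and 160 with a minimum of 200 reads. In footprints 199 genes were called higher with TMM, 114 with the authors' constants and 81 at 2-fold, and 262 were called lower with TMM against 143 at 2-fold. In translation efficiency the listed total and the authors' constants gave 157 and 158 lower, against 317 with TMM. Genes called higher made up 56.2% of mRNA calls with TMM, and 24.2% with the listed total, 35.7% with the upper quartile, 43.7% with the 33 most abundant genes left out, 16.8% with the authors' constants and 66.5% at 200 reads. In footprints that share was 43.2% with TMM and 23.8% with the authors' constants, and in translation efficiency 45.0% and 73.8%. The Hspa8 mRNA log2 ratio, 0.26 with TMM and not called, was -0.62 and called lower with the authors' constants. The causes of these changes were not tested.

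No paired analysis was possible because each group holds 1 library, and no library was left out. Untreated mRNA depth, with 15 to 139 reads for the 5 genes, limits the mRNA ratios and translation efficiency.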
